A study of Mus musculus with 74 samples.

Results

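Of 53011 peaks of 67 KRAB zinc finger proteins (KRAB-ZFPs), 590 (1.11%) had the midpoint of their 200 bp window within 20 kb of an olfactory receptor gene and are described here by KRAB-ZFP and by receptor cluster. The members were found by position alone: a gene of the gencode vM1 annotation of the mouse build mm9 counted as an olfactory receptor gene where its symbol starts with Olfr, whatever its biotype. These were 1251 genes on 18 chromosomes, 1113 of them annotated as protein-coding, 133 as pseudogenes and 5 as processed transcripts. The bases within 20 kb of them, called the territory below, added up to 27.9 Mb of the 2559 Mb of known sequence, or 1.09% of the genome. The territory held 21.2 peaks per Mb and the genome 20.7.

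KRAB-ZFPs are DNA-binding repressors that recognise DNA with an array of zinc fingers and recruit the corepressor KAP1 (TRIM28) through the KRAB domain, and many bind transposable elements. Olfactory receptors are G-protein-coupled receptors of olfactory sensory neurons, and each neuron expresses a single allele of a single receptor gene. Their genes stand in tandem clusters, usually with the coding sequence in 1 exon, and form the largest gene family of the mouse. The clusters lie in AT-rich DNA with many L1 elements.

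Each KRAB-ZFP was overexpressed with an epitope tag and assayed by ChIP-seq once, without a replicate, so no value of a single KRAB-ZFP has a replicate error, and its 95% Wilson interval covers counting error only. In F9 EC cells, a mouse embryonal carcinoma line, 18 KRAB-ZFPs carried a 3XFLAG tag (antibody F1804) and were called against F9 input and a FLAG control ChIP, 30 carried a 3XHA tag (ab9110) and were called against F9 input and an HA control ChIP, and 10 carried a 3XHA tag (ab9110), were aligned with Bowtie2 and had a Gm14296 control in place of these. In B6 ES cells, 9 carried a 3XHA tag (clone 16B12) and were called against input alone. All were stable pools of drug-resistant clones that expressed the KRAB-ZFP from a transposon or lentiviral vector, so the peaks describe where an overexpressed, tagged protein was found, and neither cell type is an olfactory neuron. The tags counted in peaks ranged from 1681 to 540220 per KRAB-ZFP. These are sums over called peaks, the depth of the libraries is unknown, and a missing peak does not show missing binding.

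Pairs of sites of 1 KRAB-ZFP near receptor genes are shown for the sequence they have in common. For each named KRAB-ZFP, a 12-mer was sought that the largest number of its windows near receptor genes held on either strand (the first in the alphabet where several tied), and the sites shown are those in its highest-fold windows that held it. In capitals is the 12-mer, with 24 bases of mm9 to each side, read along the strand on which the 12-mer stands. The first set shows Gm14406, the KRAB-ZFP with the most peaks near receptor genes.
Gm14406, chr11:73343540-73343599, minus strand, near Olfr383-ps1: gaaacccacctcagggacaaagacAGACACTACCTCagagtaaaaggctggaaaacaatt
Gm14406, chr7:112494438-112494497, plus strand, near Olfr691: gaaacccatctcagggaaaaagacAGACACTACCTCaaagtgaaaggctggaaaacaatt
The stretches, from chromosomes 11 and 7, were identical at 56 of 60 positions. The 12 positions in capitals are identical by choice, here and in each pair below. The Gm14406 12-mer AGACACTACCTC stood in 107 of 123 windows near receptor genes (87.0%) and in 4441 of its 5562 other windows (79.8%). It was held by 0.0359% of the windows of the other KRAB-ZFPs, by 0.285% of 14026 evenly spaced 200 bp windows of the territory and by 0.150% of 25314 such windows of the rest of the genome. Because each 12-mer was chosen for its number of windows near receptors, that first count is partly fixed by the choice, and the count in other peaks is not.

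The next set shows Gm21082, Gm14419 and Gm8898, whose peaks near receptor genes often lay side by side.
Gm21082, chr7:115572769-115572828, plus strand, near Olfr497: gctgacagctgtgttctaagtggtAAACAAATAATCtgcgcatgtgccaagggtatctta
Gm21082, chr13:21728679-21728738, minus strand, near Olfr11: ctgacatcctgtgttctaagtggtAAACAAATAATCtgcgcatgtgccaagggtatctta
Gm14419, chr11:73553830-73553889, plus strand, near Olfr388-ps1: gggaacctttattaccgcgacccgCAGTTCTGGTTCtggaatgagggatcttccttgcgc
Gm14419, chr16:59128407-59128466, plus strand, near Olfr194: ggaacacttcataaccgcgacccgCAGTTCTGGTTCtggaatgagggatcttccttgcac
Gm8898, chr9:18851830-18851889, plus strand, near Olfr835: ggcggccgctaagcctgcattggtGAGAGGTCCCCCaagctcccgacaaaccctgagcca
Gm8898, chr2:85536624-85536683, minus strand, near Olfr1008: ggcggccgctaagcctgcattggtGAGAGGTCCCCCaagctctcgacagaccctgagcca
The Gm21082 stretches were identical at 52 of 60 positions, those of Gm14419 at 54 and those of Gm8898 at 58. The Gm21082 12-mer AAACAAATAATC stood in 31 of 33 windows near receptor genes (93.9%) and in 78.6% of its other windows. The Gm14419 12-mer CAGTTCTGGTTC stood in 38 of 61 (62.3%) and in 64.5% of the others. For Gm8898, GAGAGGTCCCCC stood in 19 of 20 windows (95%) and in 79.1% of the others. Among windows of the other KRAB-ZFPs, the Gm21082 12-mer stood in 43 (0.0846%), of which 33 were of Gm13150. That of Gm14419 stood in 150 (0.305%), 66 of them of Gm14399, and that of Gm8898 in 13 (0.0252%), 11 of them of Gm14443.

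A further set shows the remaining named KRAB-ZFPs whose 12-mer stood in at least 60% of their windows near receptor genes, except Gm13225, whose 12-mer was a run of A with a single G.
Gm13051, chr2:87561353-87561412, plus strand, near Olfr1137: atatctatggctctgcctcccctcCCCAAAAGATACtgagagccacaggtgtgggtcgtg
Gm13051, chr10:129496371-129496430, minus strand, near Olfr822: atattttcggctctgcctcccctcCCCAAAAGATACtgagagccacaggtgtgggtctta
Zfp808, chr9:38428278-38428337, plus strand, near Olfr914: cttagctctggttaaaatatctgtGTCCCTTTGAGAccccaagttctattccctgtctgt
Zfp808, chr2:111284363-111284422, minus strand, near Olfr1287: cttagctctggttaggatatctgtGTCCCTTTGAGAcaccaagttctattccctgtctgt
Gm13157, chr2:36213998-36214057, plus strand, near Olfr338: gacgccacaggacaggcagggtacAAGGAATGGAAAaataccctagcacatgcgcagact
Gm13157, chr2:36220980-36221039, plus strand, near Olfr338: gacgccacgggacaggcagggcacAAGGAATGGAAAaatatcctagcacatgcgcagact
Gm13139, chr9:18831654-18831713, minus strand, near Olfr835: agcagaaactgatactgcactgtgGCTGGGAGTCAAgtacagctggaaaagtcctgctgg
Gm13139, chr16:58833900-58833959, plus strand, near Olfr175-ps1: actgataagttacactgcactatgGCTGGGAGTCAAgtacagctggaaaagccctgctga
Gm14412, chr7:111869865-111869924, minus strand, near Olfr664: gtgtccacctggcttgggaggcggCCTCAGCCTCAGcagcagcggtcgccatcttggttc
Gm14412, chr13:21421696-21421755, plus strand, near Olfr1367: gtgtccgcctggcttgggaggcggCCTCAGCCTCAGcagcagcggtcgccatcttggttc
Gm13152, chr10:77962316-77962375, plus strand, near Olfr1358: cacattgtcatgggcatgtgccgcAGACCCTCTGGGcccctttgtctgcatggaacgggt
Gm13152, chr9:19606568-19606627, minus strand, near Olfr859: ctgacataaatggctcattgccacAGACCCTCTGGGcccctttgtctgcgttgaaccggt
Sites of Gm13051 were identical at 55 of 60 positions, those of Zfp808 and Gm13157 at 57, those of Gm13139 at 49, those of Gm14412 at 59 and those of Gm13152 at 44. For 5 of these 6 the 12-mer was less frequent away from receptor genes by over 1.5 times. It stood in 14 of 18 Zfp808 windows near receptors (77.8%) against 47.9% of its others, in 13 of 14 of Gm13157 (92.9%) against 49.4%, in 7 of 7 of Gm13139 (100%) against 48.8%, and in 22 of 29 of Gm14412 (75.9%) against 38.2%. For Gm13152 it stood in 22 of 36 (61.1%) against 17.1%. For Gm13051 it was 21 of 22 (95.5%) against 71.8%. These differences describe 12-mers picked on the windows near receptors and were not tested. Of the windows of the other KRAB-ZFPs, at most 0.153% held such a 12-mer. That was the Gm14412 12-mer, in 77 windows, 57 of them of Gm14419.

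The authors centred each window on the peak summit, so the position of the 12-mer from the midpoint was compared near receptor genes and elsewhere. In Gm14406 windows near receptor genes the centre of the 12-mer was a median of 36 bp downstream of the midpoint, with a range of 10 to 89 bp, and in its other windows a median of 35 bp. In Gm21082 windows it stood upstream in all 31 cases, from -87 to -35 bp with a median of -62 bp, against -59 bp in its other windows. For Zfp808 the median was -69 bp, against -71 bp elsewhere, and for Gm13051 it was -1 bp, against 1 bp elsewhere. Medians near receptor genes and elsewhere lay further apart for Gm13152 (-14.5 and -9 bp), Gm8898 (-4 and 10 bp), Gm13157 (16 and 31 bp), Gm13225 (38 and 16 bp) and Zfp961 (19 and -24 bp). None of these differences was tested. In Zfp961 the leading 12-mer stood in 7 of 27 windows, and in Gm13251 and Gm13235 no 12-mer stood in more than 3, so no 12-mer was common to most of their windows near receptors.

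The number of peaks near receptor genes was uneven over the KRAB-ZFPs. Gm14406 had 123 and Gm14419 had 61, together 31.2% of the 590, and the 12 KRAB-ZFPs with the most held 428 (72.5%). After these 2 came Gm13152 with 36, Gm21082 with 33, Gm14412 with 29, Zfp961 with 27, Gm13051 and Gm13225 with 22 each, Gm13251 with 21, Gm8898 with 20, Zfp808 with 18 and Gm13235 with 16. At least 5 such peaks were found for 24 KRAB-ZFPs, 1 to 4 for 27 and none for 16.

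As a share of a KRAB-ZFP's own peaks, the order was different. The largest shares among those with at least 5 such peaks were 4.14% for Gm13139 (7 of 169, Wilson interval 2.02% to 8.30%), 4% for Gm13051 (22 of 550, 2.66% to 5.98%), 3.31% for Zfp808 (18 of 544, 2.10% to 5.17%), 3.16% for Gm13157 (14 of 443, 1.89% to 5.23%) and 2.16% for Gm14406 (123 of 5685, 1.82% to 2.58%). Each of these intervals lay above the 1.09% of the genome that the territory covers, as did those of Zfp961 (1.85%, 1.28% to 2.68%) and Gm14419 (1.56%, 1.22% to 2.00%). The interval lay below 1.09% for 8 KRAB-ZFPs, among them Gm13152 (0.694%, 0.502% to 0.959%), Gm13225 (0.616%, 0.407% to 0.931%) and Gm13251 (0.636%, 0.417% to 0.971%). For the other 52 it held the genome's share. These intervals treat peaks as independent and were not adjusted for the 67 KRAB-ZFPs, and the first 5 were picked as the largest shares.

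**Figure D1:**
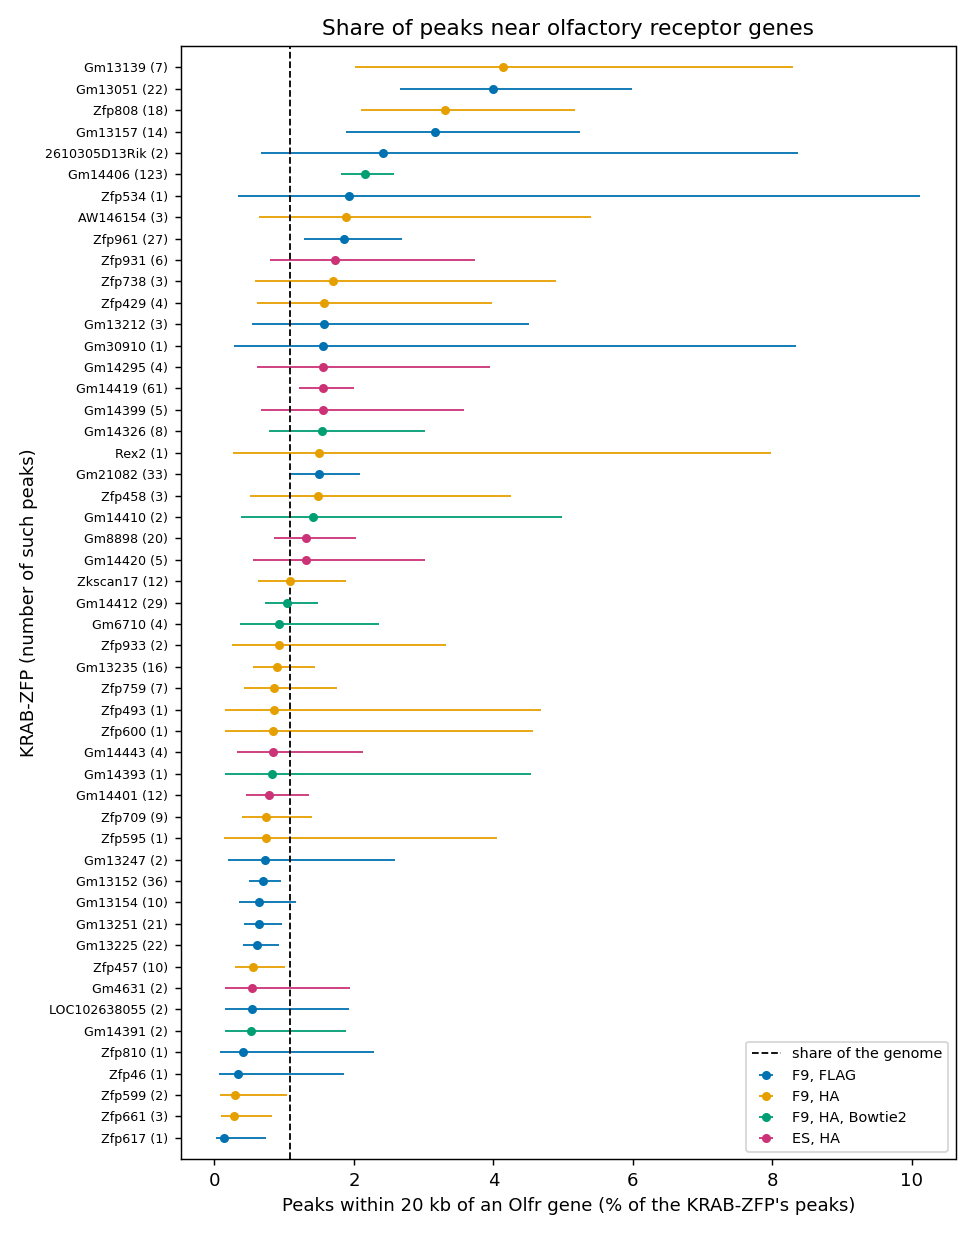
Share of each KRAB-ZFP's peaks within 20 kb of an Olfr gene (percent, x axis) for the 51 KRAB-ZFPs with at least 1 such peak, with the number of these peaks beside the name. Points are coloured by cell line, tag and aligner, bars are 95% Wilson intervals (counting error only) and the dashed line is the 1.09% of the genome within 20 kb of these genes. The 4 highest shares among those with at least 5 such peaks, from 3.16% to 4.14%, have intervals above the line. The intervals are not adjusted for the number of KRAB-ZFPs.

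To ask whether KRAB-ZFP peaks were found near receptor genes more or less often than the extent of the territory gives, the 67 shares were compared with 1.09%. The mean share was 0.984% ± 0.947 (SD, n = 67 KRAB-ZFPs), a mean difference of -0.11 percentage points, with 24 KRAB-ZFPs above and 43 below. This was not past the threshold (permutation test, two-sided, flipping the sign of each KRAB-ZFP's difference, p = 0.367, adjusted p = 0.455 with Benjamini-Hochberg over 9 tests). The pooled share was 1.11%, and 0.987% without Gm14406. The mean difference was -0.30 percentage points with only peaks of a score over 100 and a fold over 20 (permutation adjusted p = 0.107), and -0.28 when multi-copy and overlapping peaks were left out (permutation p = 0.0359, adjusted p = 0.0646). For the latter, multi-copy sequence was left out of the peaks but not out of the 1.09%. It made up 20.7% of evenly spaced windows in the territory and 12.8% in the rest of the genome. The value of -0.28 is thus not a comparison of like shares. In this and the other tests each KRAB-ZFP counted as 1 sample. Related KRAB-ZFPs with similar zinc fingers are not fully independent.

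In 16 KRAB-ZFPs no peak lay near a receptor gene: EtOHi1, Gm13145, Gm13150, Gm14418, Gm14436, Zfp273, Zfp456, Zfp58, Zfp712, Zfp872, Zfp874a, Zfp874b, Zfp882, Zfp935, Zfp938 and Zfp953. They had from 67 to 444 peaks each and 2522 in all. A count of 0 (3 counts of the total) allows a share of up to 0.676% for Gm13145 with 444 peaks and of up to 4.48% for EtOHi1 with 67. That limit was below 1.09% for Gm13145. For the other 15 a difference from the genome's share was not detectable at these peak numbers.

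The shares were set against the setups, since the tags were on different proteins and settings differed between them. The mean was 1.26% ± 1.09 (SD, n = 18) for F9 FLAG and 0.788% ± 1.01 (SD, n = 30) for F9 HA, a difference of 0.47 percentage points (two-sided permutation test, p = 0.134, adjusted p = 0.241). In ES cells it was 1.24% ± 0.423 (SD, n = 9) and in all F9 setups 0.944% ± 1.00 (SD, n = 58), a difference of 0.30 percentage points (two-sided permutation test, p = 0.386, adjusted p = 0.455). Neither passed. All 9 KRAB-ZFPs in ES cells had a peak near a receptor gene, with shares from 0.539% to 1.73%. The 16 without one were all in F9 cells, 12 of them with F9 HA. Of these 16, 15 had at most 215 peaks in all, fewer than any of the 9 in ES cells, so the peak numbers moved with this contrast. Cell line, antibody, control and threshold cannot be told apart between ES cells and F9 cells. Nor can tag, antibody and control between F9 FLAG and F9 HA, where the part of the threshold was not tested.

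Vomeronasal receptor genes (symbols starting with Vmn), which encode pheromone receptors and also stand in clusters, were taken for comparison. Within 20 kb of these 437 genes lay 346 peaks (0.653%), against 0.671% of the genome, and 1 peak was near both families. Divided by the genome's share, the mean was 0.911 ± 0.868 (SD) for Olfr and 0.814 ± 1.12 (SD) for Vmn genes over the 59 KRAB-ZFPs with at least 100 peaks. The difference of 0.097 was not past the threshold (two-sided sign-flip permutation test, p = 0.404, adjusted p = 0.455). It was higher for Olfr genes in 32 KRAB-ZFPs and lower in 21.

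The peaks near receptor genes were then compared with the other peaks of the same KRAB-ZFP, which keeps control and threshold alike. The 24 KRAB-ZFPs with at least 5 such peaks and at least 5 others entered. A window was called multi-copy where the median number of exact copies of its 24-mers in mm9 was at least 10. Of all 53011 peaks 34.4% were multi-copy, of the 590 near receptor genes 333 (56.4%). Without Gm14406 the share was 46.7% near receptor genes and 27.4% among other peaks. Among evenly spaced windows, 20.7% of those in the territory and 12.8% of those in the rest of the genome were multi-copy.

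Within KRAB-ZFPs, the multi-copy share was 43.4% ± 33.8 (SD) near receptor genes and 34.5% ± 30.3 (SD) among other peaks. The mean difference was 8.88 percentage points, higher in 20 of 24 KRAB-ZFPs (two-sided sign-flip permutation test, p = 0.0135, adjusted p = 0.0336). The adjusted p was above 0.05 when any 1 of 8 KRAB-ZFPs was left out (Gm14326, Gm14399, Gm14401, Gm14412, Gm14419, Gm14420, Zfp709 or Zfp961), with differences down to 7.501 and permutation adjusted p from 0.0506 to 0.0635. With a window called multi-copy from 2 copies the difference was 18.1 points, and with only peaks of a score over 100 and a fold over 20 it was 3.53 points (permutation adjusted p = 0.469, n = 13). The difference was 21.3 points in ES cells (6 of 6 higher), 21.2 with F9 HA aligned with Bowtie2 (3 of 3) and 4.77 with F9 FLAG (7 of 8). With F9 HA it was -2.37 points (4 of 7 higher). Gm8898 had 20 of 20 windows multi-copy near receptor genes and 88.7% elsewhere. For Zfp961 the shares were 40.7% and 18.8%. In the other direction stood Gm13139, with 0 of 7 and 33.3%, and Gm13225, with 0 of 22 and 18.2%. Reads with several equally good positions were placed at 1 of them pseudo-randomly, so a peak in a multi-copy window may stand for another copy.

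**Figure D2:**
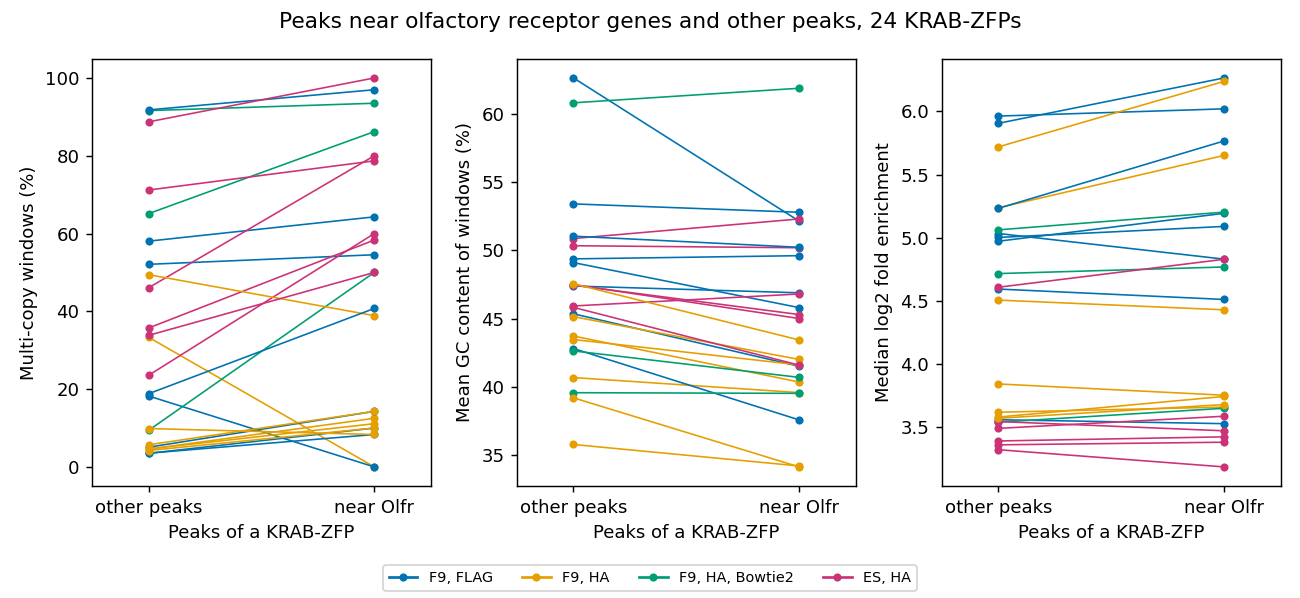
Percent of multi-copy windows, mean GC content of windows (percent) and median log2 fold enrichment (y axes) among the other peaks and the peaks near Olfr genes of 24 KRAB-ZFPs. A line joins the 2 values of a KRAB-ZFP and is coloured by cell line, tag and aligner. GC content was lower near Olfr genes in 20 of the 24.

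Windows near receptor genes had less GC than other windows of the same KRAB-ZFP. The mean GC content was 44.8% ± 6.49 (SD) near receptor genes and 47.0% ± 6.19 (SD) among other peaks, a mean difference of -2.18 percentage points, lower in 20 of 24 KRAB-ZFPs (two-sided sign-flip permutation test, p = 0.00011, adjusted p = 0.000495). The mean difference was below 0 in each setup. It was -3.07 with F9 FLAG (7 of 8 lower) and -2.89 with F9 HA (7 of 7). In ES cells it was -1.12 ± 2.20 (SD, 4 of 6 lower). With F9 HA aligned with Bowtie2 it was -0.31 ± 1.52 (SD, 2 of 3 lower). Evenly spaced windows had a mean of 38.9% in the territory and 41.8% in the rest of the genome. The largest difference was that of Gm13152, with 52.1% near receptor genes and 62.6% elsewhere. Within 1 kb of an annotated transcript start lay 6 of its 36 peaks near receptors (16.7%) and 50.3% of its others. For Gm14406 the means were 39.5% and 39.6%.

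The deposited fold enrichment of peaks over local background was slightly higher near receptor genes. The mean of the KRAB-ZFPs' median log2 fold was 4.49 ± 1.01 (SD) near receptor genes and 4.39 ± 0.89 (SD) elsewhere, a difference of 0.10, higher in 17 of 24 (two-sided sign-flip permutation test, p = 0.0149, adjusted p = 0.0336). On average it was above 0 in each setup, from 0.03 in ES cells (4 of 6 higher) to 0.15 with F9 HA (5 of 7 higher). With a distance of 10 kb the difference was -0.0028. The adjusted p was also above 0.05, from 0.0506 to 0.0644 by permutation, when any 1 of 10 KRAB-ZFPs was left out (Gm13051, Gm13139, Gm13154, Gm14326, Gm14401, Gm14412, Gm14419, Zfp709, Zfp808 or Zfp961), with differences down to 0.085. The median fold of Gm13051 was 77.0 near receptors and 59.96 elsewhere, that of Zfp808 75.5 and 52.7, and that of Zfp961 54.4 and 37.6. For Gm13152 it was 28.4 near receptors and 32.7 elsewhere. A score over 100 with a fold over 20 was reached by 417 of the 590 peaks (70.7%), against 64% of all peaks. Samples called at the strictest thresholds pass this cut by their calling alone, as did all 123 Gm14406 peaks near receptors. These pooled shares thus depend on which KRAB-ZFPs contribute peaks and cannot show whether peaks near receptors are stronger.

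Peaks stood between genes in most cases and seldom in a receptor gene itself. The midpoint was intergenic for 557 of the 590 peaks, in an intron of another gene for 19, in an exon of another gene for 5, in an intron of an Olfr gene for 4 and in an Olfr coding exon for 5. Thus 33 (5.59%) were in any annotated gene, while genes cover 11.3% of the territory. Olfr coding exons held 0.847% of the 590 peaks and cover 3.76% of the territory. Of all 53011 peaks 41.1% were in a gene, and genes cover 41.2% of the genome.

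Inside Olfr genes lay 9 peaks (1.53%), while these genes make up 7.44% of the territory, a share that 43.9 of 590 peaks would give. Within KRAB-ZFPs the share was 1.17% ± 2.80 (SD), 6.27 percentage points below 7.44% and lower in 23 of 24 (two-sided sign-flip permutation test, p = 1.00e-05, which is the lowest value this number of permutations allows, adjusted p = 9.00e-05). This p says little by itself, since 18 of the 24 had 0 such peaks and so the same difference, and 11 had too few peaks for 1 to fall in a receptor gene at 7.44%. In the other 13, an alternative added after the data were seen, 8 of 442 peaks were inside Olfr genes, where 7.44% would give 32.9, and the share was lower in 12 of 13 (mean difference -5.28 percentage points, exact sign-flip permutation test, p = 0.00146, adjusted p = 0.00659). Of these 13, 7 had 0. Over all 24, the share was lower in 6 of 6 KRAB-ZFPs in ES cells and 8 of 8 with F9 FLAG. With F9 HA it was lower in 6 of 7, and with F9 HA aligned with Bowtie2 in 3 of 3. These counts say little as well, since a count of 0 is always lower and 18 of the 24 had 0. The shortage went on just beside the genes. In the first 1 kb outside a gene lay 15 peaks (2.54%, against 8.92% of the territory) and from 1 to 2 kb 30 (5.08%, against 8.81%). Another 110 lay from 2 to 5 kb (18.6%, against 24.1%). From 5 to 10 kb lay 204 peaks (34.6%, against 26.7%), from 10 to 15 kb 138 (23.4%, against 14.9%) and from 15 to 20 kb 84 (14.2%, against 9.19%). Within 1 kb of an annotated Olfr transcript start, which in models as short as these is mostly the start of the coding sequence, were 11 peaks (1.86%, against 9.55%).

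The 5 coding exons with a peak midpoint were those of Olfr486 (Zfp961, fold 31.1), Olfr698 (Gm14419, fold 29.5), Olfr1271 (Gm13251, fold 24.2), Olfr995 (Gm21082, fold 22.0) and Olfr1359 (Zfp600, fold 14.9). Each was called in a single KRAB-ZFP. Their median copy numbers were 1, 1, 1, 3 and 2. The deposited false discovery rate was 10.1% for the peak in Olfr1359 and at most 0.21% for the others. The windows in Olfr486 and Olfr1271 are shown on the coding strand, with coding bases in capitals, as places where a called summit falls on receptor sequence itself.
Zfp961, chr7:115315453-115315652, minus strand, in Olfr486: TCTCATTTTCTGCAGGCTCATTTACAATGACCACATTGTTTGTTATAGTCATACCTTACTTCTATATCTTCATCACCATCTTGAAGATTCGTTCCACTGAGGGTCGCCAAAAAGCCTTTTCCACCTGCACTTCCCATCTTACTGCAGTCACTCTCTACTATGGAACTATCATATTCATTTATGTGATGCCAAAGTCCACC
Gm13251, chr2:90105667-90105866, minus strand, in Olfr1271: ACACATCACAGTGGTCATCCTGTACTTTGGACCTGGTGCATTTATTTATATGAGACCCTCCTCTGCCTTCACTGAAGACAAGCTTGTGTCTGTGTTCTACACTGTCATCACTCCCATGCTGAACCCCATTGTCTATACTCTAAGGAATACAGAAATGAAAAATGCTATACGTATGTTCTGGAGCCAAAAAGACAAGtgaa
The window in Olfr486 was coding in all 200 bases and the window in Olfr1271 in 196. Beside Olfr486, 4231 bp from the gene, stood a second Zfp961 peak with a fold of 129.6.

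The receptor genes formed 57 clusters when neighbours at most 500 kb apart were joined, of which 12 were single genes. Peaks were found in 46 of the clusters, and none of the 11 without a peak had more than 3 genes. The 23 clusters with at least 10 genes held 1131 genes and 511 of the peaks. The largest cluster by genes also had the most peaks: 86 at 268 genes on chromosome 2 from 85171054 to 90241831 (Olfr987 to Olfr1274-ps), of 24 KRAB-ZFPs, led by Gm14406 with 24, Gm14419 with 10 and Gm21082 with 8. Next were 46 peaks at 97 genes on chromosome 9 from 37518857 to 39995679 (Olfr151 to Olfr986) and 42 at 38 genes on chromosome 9 from 18559100 to 20140538 (Olfr24 to Olfr18). There were 38 each at 60 genes on chromosome 17 from 37222136 to 38473042, 37 genes on chromosome 2 from 36140548 to 37188253 and 145 genes on chromosome 7 from 109625287 to 112517869. The 4 that followed had 33 peaks (chromosome 7, from Olfr467), 29 (chromosome 10, from Olfr9), 25 (chromosome 11, from Olfr20) and 25 (chromosome 19, from Olfr1417).

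Per Mb of territory the order changed. Among clusters of at least 10 genes the highest density was 39.6 peaks per Mb, at the 37 genes on chromosome 2 from Olfr334-ps1 to Olfr368, followed by 34.2 on chromosome 9 from Olfr24, 31.7 on chromosome 7 from Olfr467, 31.6 on chromosome 17 from Olfr90 and 25.9 on chromosome 4 from Olfr62. The cluster of 268 genes had 17.8 per Mb. The lowest was 3.13 per Mb on chromosome 1 from Olfr433, where the 14 genes had 1 peak. These densities are over all KRAB-ZFPs, so the ones with many peaks weigh most, and they were not tested.

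**Figure D3:**
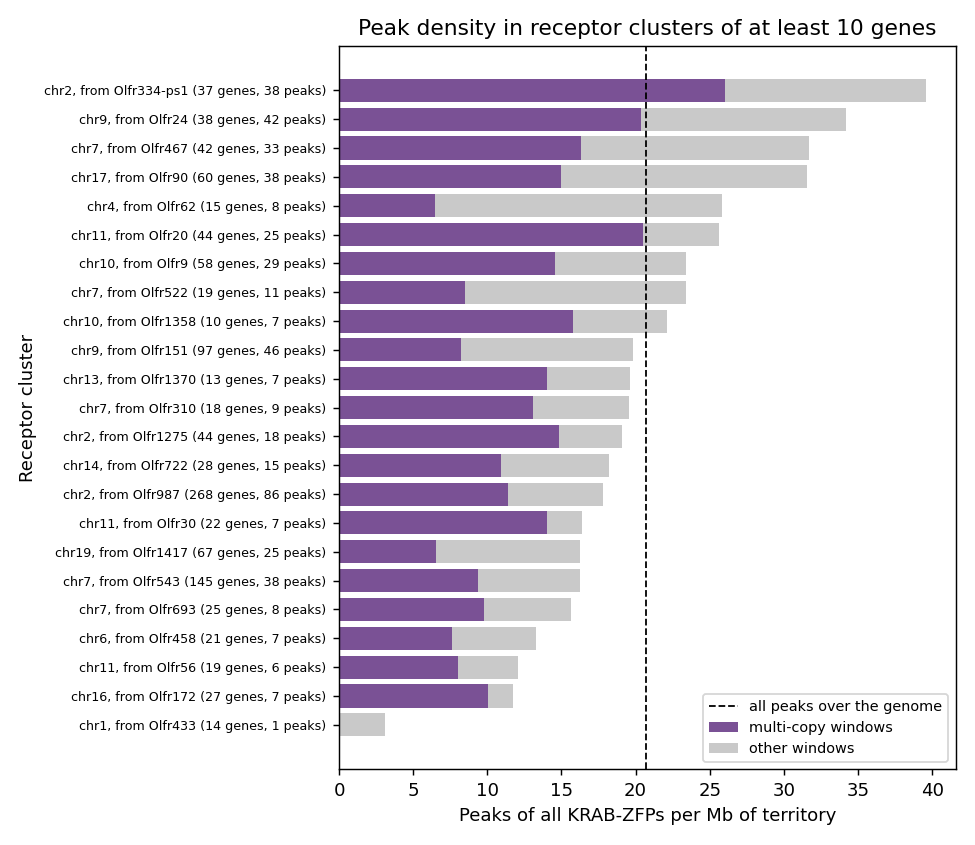
Peaks of all KRAB-ZFPs per Mb of territory (x axis) in the 23 receptor clusters of at least 10 genes, each named by its chromosome and first gene. The bar is divided into multi-copy windows and other windows, and the dashed line is the 20.7 peaks per Mb over the whole genome. Densities ran from 3.13 to 39.6 peaks per Mb.

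Gm14406 had peaks in each of the 10 clusters with the most peaks, from 1 on chromosome 19 to 24 in the cluster of 268 genes, and in 30 clusters in all. Gm14412 had its largest number, 6 of 29, in the cluster of 145 genes on chromosome 7, where Gm14419 and Gm21082 had 0. Zfp961 had 6 of its 27 peaks at the 42 genes on chromosome 7 from Olfr467 and was the leading KRAB-ZFP there. Counts this small differ by few peaks and were not tested.

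**Figure D4:**
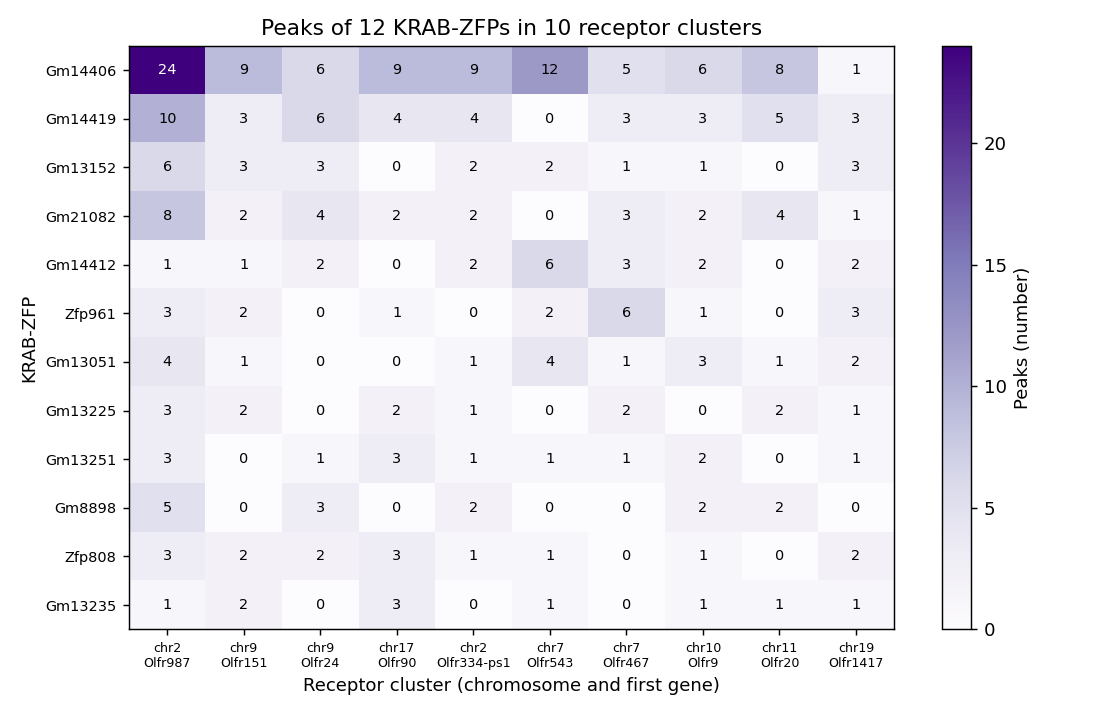
Number of peaks (colour and digits) of the 12 KRAB-ZFPs with the most peaks near Olfr genes (rows) in the 10 receptor clusters with the most peaks (columns, by chromosome and first gene). Gm14406 leads with 24 peaks in the cluster from Olfr987, and Gm14419 has 0 in the cluster from Olfr543.

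A peak within 20 kb was found for 581 of the 1251 Olfr genes (46.4%), against 67.2% of all annotated genes. The median length was 957 bp for Olfr genes and 5384 bp for all genes. A peak can count for several neighbouring receptors. The part of gene length in the difference was not tested. Of the 581, 337 had 1 peak and 17 had at least 5. Olfr340, Olfr816, Olfr368 and Olfr835 had 6 each. Olfr1141, Olfr1487, Olfr152, Olfr169, Olfr339 and Olfr855 had 5 peaks each, 1 from each of 5 KRAB-ZFPs. At Olfr340 (ENSMUSG00000058803.1, chromosome 2 from 36308107 to 36309045) 6 KRAB-ZFPs had 1 peak each: Gm13152, Gm13225, Gm13251, Gm14326, Gm14406 and Zfp931. At Olfr816 (ENSMUSG00000063715.1, chromosome 10 from 129348394 to 129349332) they were those of Gm14406, Gm14419, Gm14443, Gm21082 and Gm8898.

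Peaks of Gm21082, Gm14419 and Gm8898 stood side by side at several receptor genes, among them Olfr816, Olfr368 and Olfr152, where a Gm14443 peak was also found. Near receptors, 19 of the 20 Gm8898 peaks (95%) had a Gm14419 peak from 1104 to 1625 bp away, with a median of 1491 bp. Of the 1497 other Gm8898 peaks 75.9% had one 1000 to 2000 bp away, with a median of 1498 bp. In 16 of 33 Gm21082 peaks near receptors (48.5%) a Gm14419 peak stood 101 to 362 bp away, against 36.1% of its others within 500 bp. Along the strand of the Gm21082 12-mer, all 16 of these Gm14419 peaks stood on the same side, downstream, at a median of 295 bp. Gm8898 stood downstream in 10 of 11 cases, at a median of 1768 bp over the 11, and Gm14443 in 3 of 4. The cases on the other side came from a second Gm21082 window, nearest to Olfr818, beside the same Gm14443 and Gm8898 peaks that Olfr816 has. Gm14419, Gm14443 and Gm8898 were assayed in ES cells and Gm21082 in F9 cells. These pairs were chosen after their values were seen.

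**Figure D5:**
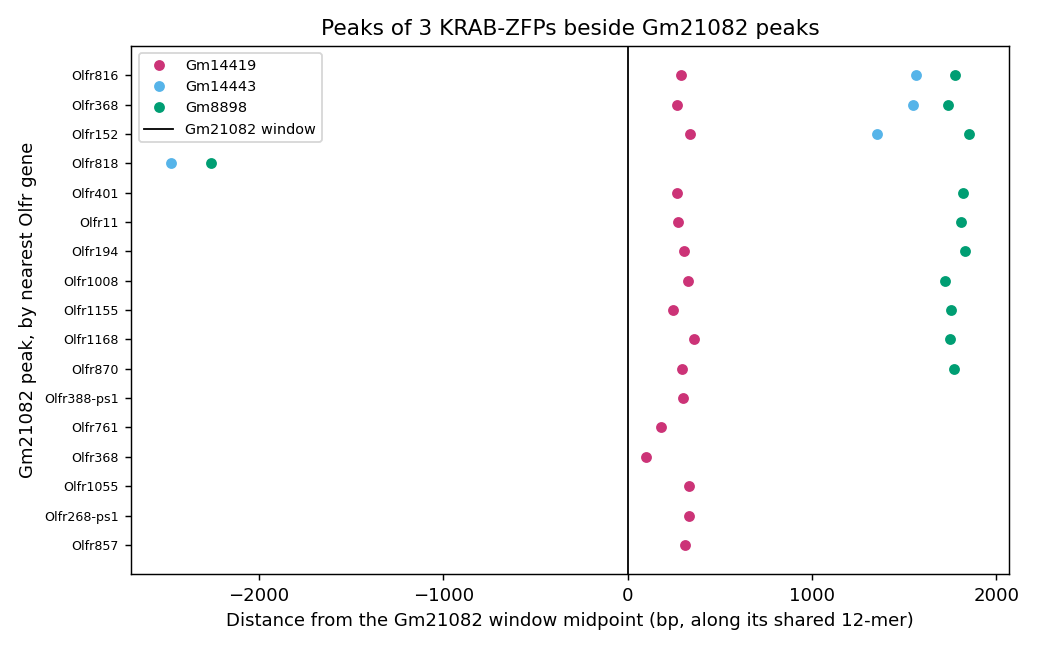
Distance (bp, x axis) from the midpoint of a Gm21082 window near Olfr genes to the nearest window of Gm14419, Gm14443 or Gm8898 within 2500 bp, along the strand of the Gm21082 12-mer, for each Gm21082 peak with such a neighbour (rows, by nearest Olfr gene). The 16 Gm14419 windows stand 101 to 362 bp downstream, and 10 of 11 Gm8898 windows stand downstream.

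Gm13139 and Zfp808, both from F9 HA, made a second pair. Of the 7 Gm13139 peaks near receptors 6 (85.7%) stood 106 to 171 bp from a Zfp808 peak, against 55.6% of its others within 500 bp. Olfr1487 had peaks of Gm13139 and Zfp808 within 20 kb, and also 1 each of Zfp961, Gm13051 and Gm14419.

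Windows that overlapped by at least 25% were joined into loci. The 590 peaks made 557 loci, of which 27 were called in more than 1 KRAB-ZFP. In these were 60 peaks (10.2%), against 13.8% of all peaks. Within KRAB-ZFPs the shared share was 16.1% ± 18.7 (SD) near receptor genes and 15.2% ± 14.1 (SD) elsewhere, and the difference of 0.99 percentage points was not past the threshold (two-sided sign-flip permutation test, p = 0.648, adjusted p = 0.648). It was higher in 10 and lower in 14 of the 24. The locus with the most KRAB-ZFPs had 4, all from F9 FLAG, and its highest-fold window is shown in full for the sequence they have in common.
Zfp617, chr9:19379818-19380017, plus strand, near Olfr854: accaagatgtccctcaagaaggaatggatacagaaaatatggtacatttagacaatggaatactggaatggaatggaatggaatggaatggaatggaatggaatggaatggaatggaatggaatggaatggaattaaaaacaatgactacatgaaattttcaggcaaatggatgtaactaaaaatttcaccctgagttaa
The window, which has no capitals, held 14 units of the 5-base sequence GGAAT in a row. The 4 KRAB-ZFPs were Zfp617 (fold 67.5, 38 tags), Zfp534 (fold 56.3, 31 tags), Zfp810 (fold 55.3, 22 tags) and Gm30910 (fold 29.4, 21 tags). For Zfp534, Gm30910, Zfp617 and Zfp810 this was the only peak near a receptor gene. The 4 loci called in 3 KRAB-ZFPs lay near Olfr25 on chromosome 9 (Gm14399, Gm14419, Gm4631), Olfr291 on chromosome 7 (Gm13235, Zfp457, Zfp458), Olfr215 on chromosome 6 (Zfp457, Zfp709, Zfp759) and Olfr169 on chromosome 16 (Gm13235, Zfp457, Zfp933), each within a single setup.

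The 10 peaks of the highest fold, with at most 2 taken per KRAB-ZFP, were as follows. The highest fold near a receptor gene was 149 (290 tags), for a Zfp961 peak 13424 bp from Olfr1389 on chromosome 11. Its window is shown in full, without capitals.
Zfp961, chr11:49230405-49230604, plus strand, near Olfr1389: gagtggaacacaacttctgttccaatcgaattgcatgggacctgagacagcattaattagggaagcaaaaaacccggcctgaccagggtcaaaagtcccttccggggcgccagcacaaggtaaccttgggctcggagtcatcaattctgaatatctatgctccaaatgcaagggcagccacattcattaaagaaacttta
It had a median 24-mer copy number of 4. Gm13157 had 2 peaks with a fold of 142.5 at 11310 and 18306 bp from Olfr338 on chromosome 2. Gm13154 had 137.2 at 5962 bp from Olfr866 on chromosome 9, in a window with a copy number of 1. Gm13051 had 136.1 near Olfr1137 and 119.9 near Olfr822, and Zfp961 had 129.6 near Olfr486. Zfp808 had a fold of 97.2 near both Olfr914 and Olfr1287, and Gm13152 had 94.5 near Olfr339. These 10 were intergenic. The limit of 2 left out Zfp961 peaks with folds of 114.01, 104.95 and 98.47 and a Gm13157 peak with 111.64, which lay above those of Zfp808 and Gm13152, and the first of these, near Olfr470, was in an exon of another gene (Gm10156). Over the 590 peaks the fold ranged from 6.41 to 149 with a median of 25.5, against a median of 22.9 over other peaks, and the tags from 7 to 737 with a median of 42.

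ETn elements are mouse endogenous retroviruses that still transpose, and their LTR ends were placed in mm9 by exact matches of the capture probes (120 bases) that the study designed to RLTRETN_Mm. Within 10 kb of a match lay 17 of the 22 Gm13051 peaks near receptors (77.3%, against 63.6% of its others) and 11 of the 27 Zfp961 peaks (40.7%, against 17.97%). Peaks of all KRAB-ZFPs near receptors within 10 kb of a match numbered 50. Over all KRAB-ZFPs the share was 8.47% near receptor genes and 2.13% elsewhere, while 2.69% of evenly spaced windows in the territory and 0.802% in the rest of the genome were that close. These shares were not tested.

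Peaks near other genes of olfaction and near well-known receptors were counted from 2 lists. Of 18 genes of olfactory signalling and receptor choice, 16 had a peak within 20 kb (39 peaks), against 67.2% of all annotated genes. They included Cnga2, a subunit of the olfactory cyclic-nucleotide-gated channel, with 1 peak of Gm14406 (fold 31.1), and Cnga4, another subunit of that channel, with 1 of Gm14412 (fold 49.6). Adcy3, the adenylyl cyclase of odour transduction, had 1 of Gm14419 (fold 10.4), and Lhx2, a factor needed for receptor expression, had 1 each of Gm13152 and Zfp46. Ebf1, a transcription factor of olfactory neurons, had 6 over a gene of 390775 bp, and Ano2, a chloride channel, had 7 over 349708 bp. Omp, the olfactory marker protein, and Rtp1, a receptor transport protein, had 0. Many genes of this list were long, such as Gnal (138457 bp) and Slc24a4 (138359 bp), against a median of 5384 bp over all annotated genes. Omp, Cnga4, Gng13, Rtp1 and Rtp2 were shorter than that median. The part of gene length in the count of 16 was not tested. Of 9 annotated receptors with well-studied ligands or loci, 3 had a peak, against 46.4% of all Olfr genes: Olfr2 (Gm14406 and Gm14420), Olfr73 (Gm14406 and Gm6710) and Olfr545 (Gm13152, Gm14401 and LOC102638055). Olfr16, Olfr17, Olfr78, Olfr124, Olfr151 and Olfr1507 had 0. Olfr160, also on the list, matched no symbol in the annotation.

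The limit of 20 kb was crossed by few bases in some cases. Just inside lay peaks of Gm13152 at 19991 bp from Olfr1358 (fold 79.1), Gm14406 at 19646 bp from Olfr402 (fold 32.4) and Zfp961 at 19529 bp from Olfr506 (fold 60.9). Just outside lay peaks of Gm14406 at 20126 bp from Olfr1413 (fold 30.1) and 20435 bp from Olfr1462 (fold 21.4) and of Gm14419 at 20506 bp from Olfr718-ps1 (fold 58.4).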

How the data were processed

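Going by the sample labels and the published methods, the authors aligned the reads to mm9 with Bowtie or Bowtie2, placed multi-mapping reads at 1 of the equally good positions, called peaks per sample with MACS 1.4.2 and set each to 200 bp around its summit. Thresholds differed: p of 1e-10 or 1e-05, with an enrichment of 20 or 10 in F9 cells and none in ES cells. They loosened thresholds where few peaks were called. Per peak the authors deposited a tag count, a score, the fold enrichment (a ratio) and a false discovery rate in percent. The score is 10 times the negative log10 of the p-value.

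The table held 53255 peaks. Peaks under 1 name (244) fit no label and 1 label had no peaks, so both were left out. The 6 control samples enter through peak calling alone. Coordinates were read in NCBIM37, the genome of mm9. Copy numbers of 24-mers were counted in that genome. Shares over KRAB-ZFPs were compared by two-sided permutation (100000 resamples, Benjamini-Hochberg over 9 tests, threshold 0.05). Only the sign-flip test against the genome's share was tried on simulated data, with fewer resamples and independent peaks. Members and lists were chosen with earlier results of these data known. KRAB-ZFPs were named as the 12 with the most members, the 5 with the largest share and those with 0. Clusters were named by peaks (10) and density (5), genes by number (10), peaks by fold (10, at most 2 per KRAB-ZFP), loci by KRAB-ZFPs (5). The 12-mers, the stretches of sequence, the ETn distances and the pair spacings were added after values were seen. Python 3 with numpy, scipy and pandas was used.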

Additional observations from a re-analysis of the deposited data

How the results depend on the processing

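Distances of 10 and 50 kb, stricter peaks, protein-coding receptors, other copy, overlap and gap limits and left-out KRAB-ZFPs were tried, the leave-one-out fits being chosen after the data were seen. Lower GC and fewer peaks in gene bodies kept their call under each alternative computed for them. Gene body shares rest on few peaks and many values of 0. The multi-copy difference no longer passed at 10 kb (7.52 points), with score over 100 and fold over 20 (3.53, 13 KRAB-ZFPs), with protein-coding receptors (8.74) or with at least 10 peaks (6.13), and ranged from 7.501 to 10.7 in the leave-one-out fits. The fold difference turned to -0.0028 at 10 kb and no longer passed with the stricter peaks (0.16), protein-coding receptors (0.10) or at least 10 peaks (0.12), ranging from 0.085 to 0.12 in the leave-one-out fits. The shared-locus difference, which never passed, turned to -1.005 at 10 kb, -4.26 with stricter peaks and -0.74 with at least 10 peaks, and ranged from -0.76 to 1.77 in the leave-one-out fits. The difference from vomeronasal genes, which never passed, turned to -0.060 at 50 kb and -0.060 with stricter peaks. The number of peaks was 368 at 10 kb. The cause of these changes was not tested, apart from the smaller number of KRAB-ZFPs or peaks in some. Each KRAB-ZFP was assayed once, library depth is unknown, and thresholds differed between samples.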
